A study of Mus musculus with 8 samples.

Results

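The genes described here are 9 B-cell surface maturation markers, Ms4a1, Cd37, Cd24a, Cd38, Cd40, Cd93, Fcer2a, Cr2 and Cd55. They were chosen by symbol, as the rows of the mRNA table that carry these names, and all 9 were found among its 22298 rows, which hold 22272 symbols. Their identifiers in that table, in the same order, are ENSMUSG00000024673, ENSMUSG00000030798, ENSMUSG00000047139, ENSMUSG00000029084, ENSMUSG00000017652, ENSMUSG00000027435, ENSMUSG00000005540, ENSMUSG00000026616 and ENSMUSG00000026399. The labels of all libraries list the build mm9, beside an aligner other than the one the study's methods name for this table, and the methods name no build, so the build of the table is not certain.

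The study followed RNA through B-cell development in the bone marrow of wild-type female C57BL/6 mice aged 8 to 10 weeks. Live cells, negative for 7-AAD, were sorted by their surface proteins, and all gates took cells with B220. Of the IgM- cells, those with CD43 were taken as pro-B and those without it as pre-B, while IgM+ cells without CD43 were taken as immature B, or as mature B where B220 was high. Each library pooled the cells of 3 mice, and there was 1 RNA library per stage. No value therefore has a replicate, no difference between stages has a replicate check in these libraries, and no p-value is given. The study also reports qPCR in a new cohort for selected mRNAs at each step, which its text does not name. The mature population was sorted from the marrow and is told from the immature one by the amount of B220, so recirculating cells and the marrow's own latest cells cannot be told apart in it.

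The libraries were not of like depth in the mRNA table. The column totals were 867920 estimated counts in pro-B, 240231 in pre-B, 223495 in immature B and 849350 in mature B. Set against the table of long non-coding transcripts, the mRNA table held 23.7% of the counts of both tables in pro-B and 23.5% in mature B, and only 6.48% in each of pre-B and immature B. The pre-B and immature B libraries stand apart from the others in this respect, and the cause was not tested. The comparison of mature B with pro-B, libraries of like column total and like mRNA share, is given first and rests on neither of them.

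Levels are given as counts and as CPM, counts scaled to 1e6 of the mRNA column total. One count was worth 1.15 CPM in pro-B, 4.16 in pre-B, 4.47 in immature B and 1.18 in mature B. Intervals are exact 95% intervals, Poisson for a level and Clopper-Pearson for a ratio or a share, and cover counting error only, not differences between animals or sorts. A gene was counted as higher or lower between libraries where the CPM ratio was at least 2 and at least 1 of the libraries compared had 10 counts. Counts under 3 were set to 3 in a ratio, so a ratio with such a count depends on what 3 counts are worth in each library.

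Surface proteins change in a known order as a B cell matures. Early precursors carry CD93 and much CD24, and these fall as newly formed cells become follicular cells. CD20, the CD40 receptor, the complement receptor CD21 and the IgE receptor CD23 are acquired during B-cell development, not all at the same step. CD21, encoded by Cr2, binds fragments of complement C3 and lowers the threshold for signals from the antigen receptor. CD55 protects cells from their own complement, and CD23 is a marker by which follicular and marginal zone B cells are told apart.

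From pro-B to mature B, 5 of the 9 genes were higher, 2 were lower, and Cd37 and Cd38 passed the fold in neither direction. The 5 were Fcer2a, Cr2, Cd55, Ms4a1 and Cd40, and the 2 lower ones were Cd93 and Cd24a. Over all 9630 genes tested in this comparison, 13.2% were higher and 24.2% lower by the same rule. The median log2 ratio of the 9 genes was 2.07, with the 0 of Fcer2a set to 3 counts, against -0.19 over all genes tested. This median is the value of Cd40, which rests on 10 and 41 counts, and on FPKM the median was that of Cd38, 0.92. In bulk RNA, a change in the share of cells that carry a transcript and a change in the amount per cell cannot be told apart.

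**Figure D1:**
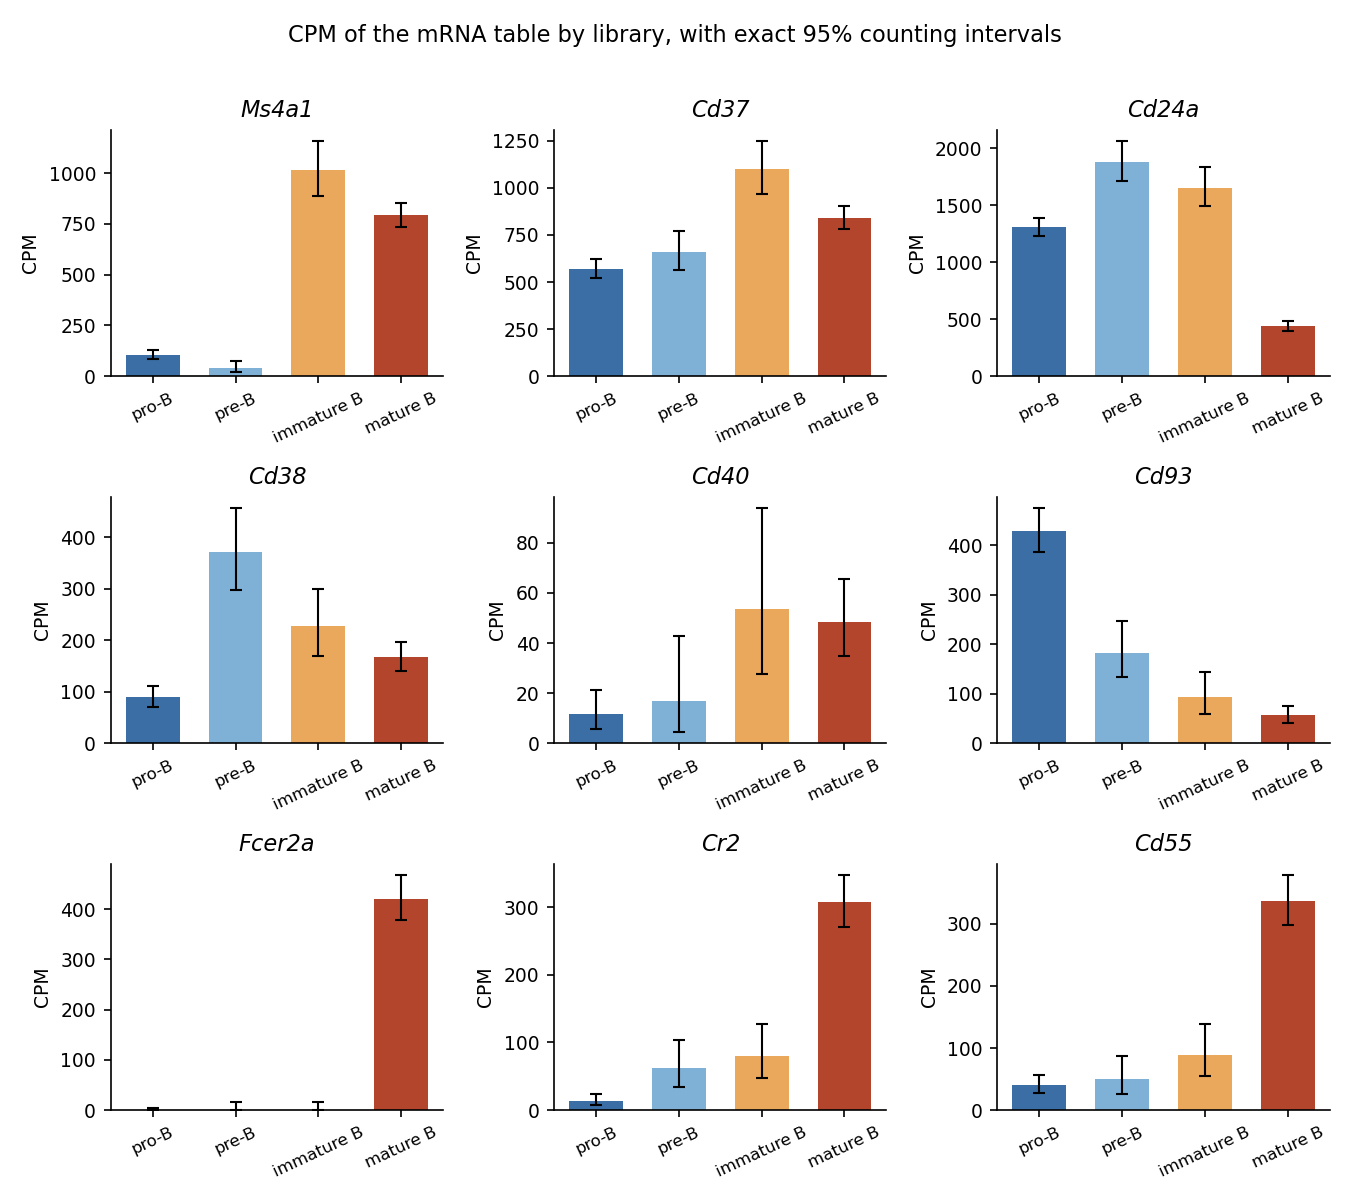
CPM of each of the 9 genes in the 4 libraries, 1 panel per gene, each with its own vertical axis from 0; bars are single libraries and error bars exact 95% counting intervals. Fcer2a, Cr2 and Cd55 stand highest in mature B, Ms4a1 is high in immature B and mature B, and Cd93 is highest in pro-B; the bars of pre-B and immature B rest on column totals of 240231 and 223495 counts.

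Fcer2a, which encodes the low-affinity IgE receptor CD23, had the largest ratio of the 9 genes. It was listed at 0 counts in the first 3 libraries and at 357.55 counts, 421 CPM (379 to 468), in mature B. The exact upper limit of a count of 0 was 4.25 CPM in pro-B, 15.4 in pre-B and 16.5 in immature B. With the 0 set to 3 counts, mature B was 122-fold above pro-B and 31.4-fold above immature B. The exact lower limits of these ratios were 98.7 and 25.4, for counting error only. With counts halved, an alternative given at the end, these limits were 49.1 and 12.6. Of 4347 genes with at least 40 counts in mature B, 15 (0.345%) were at 0 in pro-B, against 56 of 4908 (1.14%) in the other direction, while 143 (3.29%) were at 0 in immature B and 160 (3.68%) in pre-B. The same zeros were listed for Ash1l and Tomm70a, genes of chromatin and of mitochondrial import that are used in most cells, so a 0 in this table is not by itself a sign that a transcript was absent.

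Cr2 was low until the mature stage. It had 12 counts in pro-B (13.8 CPM, 7.14 to 24.2), 15 in pre-B (62.4 CPM, 34.9 to 103), 18 in immature B (80.5 CPM, 47.7 to 127) and 261 in mature B (307 CPM, 271 to 347). Mature B was 22.2-fold above pro-B (12.5 to 43.6) and 3.82-fold above immature B (2.37 to 6.54). The interval of mature B lay clear of the others, and those of pre-B and immature B overlapped widely. The pro-B level lay below both of these on CPM, although the counts in the 3 libraries were nearly alike, since the totals differed.

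Cd55, the decay-accelerating factor that takes apart the C3 convertases, was also highest in mature B. It had 35.3 counts in pro-B (40.7 CPM, 28.1 to 56.1), 12 in pre-B (49.95 CPM, 25.8 to 87.3), 19.9 in immature B (89.2 CPM, 54.7 to 138) and 286 in mature B (337 CPM, 299 to 378). The mature B level was 8.26-fold that of pro-B (5.87 to 12.2) and 3.77-fold that of immature B (2.39 to 6.25). On FPKM the latter comparison was 25.9 against 2.54, a log2 ratio of 3.35, which lies outside that interval. Among the first 3 libraries the intervals of neighbours overlapped. Mouse has a closely related second gene, Cd55b, which was listed at 0 in every library; how reads that fit both genes were assigned is not given in the sources used here.

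Since Fcer2a, Cr2 and Cd55 rose together in the last library, the 250 bases before their start sites are shown. They come from the RefSeq promoter table on build GRCm38.p6, which holds 5 of the 9 genes in 7 windows (Cd37, Cd38, Cd55, Cr2 and, with 3 start sites, Fcer2a); Ms4a1, Cd24a, Cd40 and Cd93 have no entry. Cr2 lies at chr1:195176720-195176969, Cd55 at chr1:130462745-130462994, and the Fcer2a windows at chr8:3690391-3690640 (a), chr8:3690862-3691111 (b) and chr8:3694175-3694424 (c), all on the minus strand and written 5′ to 3′ along the gene. Capitals mark matches, on either strand, to TGGGAA (the core bound by RBPJ, the DNA-binding partner of Notch receptors), CAGNTG (an E-box form), ATGCAAAT (the octamer), GGAAGT (a core of ETS family sites) and TATAAA (the TATA box).
Cr2: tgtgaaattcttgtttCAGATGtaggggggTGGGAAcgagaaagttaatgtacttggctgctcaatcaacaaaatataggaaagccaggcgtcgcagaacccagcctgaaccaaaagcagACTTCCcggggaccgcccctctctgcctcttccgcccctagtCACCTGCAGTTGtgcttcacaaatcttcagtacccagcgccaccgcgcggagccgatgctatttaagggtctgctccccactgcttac
Cd55: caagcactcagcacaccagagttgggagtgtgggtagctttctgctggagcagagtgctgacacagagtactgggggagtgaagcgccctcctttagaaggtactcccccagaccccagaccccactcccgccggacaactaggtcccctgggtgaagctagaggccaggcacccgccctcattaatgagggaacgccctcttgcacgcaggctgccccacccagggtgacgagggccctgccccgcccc
Fcer2a (a): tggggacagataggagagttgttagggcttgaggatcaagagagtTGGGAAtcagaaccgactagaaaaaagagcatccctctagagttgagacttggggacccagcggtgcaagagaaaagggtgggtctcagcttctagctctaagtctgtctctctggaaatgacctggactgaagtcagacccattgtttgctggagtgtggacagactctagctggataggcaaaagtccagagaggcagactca
Fcer2a (b): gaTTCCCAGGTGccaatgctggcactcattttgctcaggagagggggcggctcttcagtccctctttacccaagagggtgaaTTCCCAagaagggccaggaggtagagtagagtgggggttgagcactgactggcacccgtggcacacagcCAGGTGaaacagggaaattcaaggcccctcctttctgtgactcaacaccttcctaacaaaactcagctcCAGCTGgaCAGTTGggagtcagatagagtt
Fcer2a (c): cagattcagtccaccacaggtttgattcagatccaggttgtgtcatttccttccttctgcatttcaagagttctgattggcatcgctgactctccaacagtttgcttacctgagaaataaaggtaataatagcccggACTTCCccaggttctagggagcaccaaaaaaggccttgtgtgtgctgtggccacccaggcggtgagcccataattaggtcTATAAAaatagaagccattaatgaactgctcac

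The 3 genes did not share a match. Cr2 held 1 TGGGAA match, 3 CAGNTG matches and 1 GGAAGT match, the nearest E-box starting 82 bases upstream of the start site. Window b of Fcer2a held 2 TGGGAA and 4 CAGNTG matches, of which the TGGGAA match starting 248 bases upstream overlaps the E-box starting at 244. Window a held 1 TGGGAA match, and window c 1 GGAAGT match and 1 TATA box, which started 33 bases upstream. Cd55 held no match to any of the 5 motifs, and its window had 64% G and C against a median of 52.4% over all windows. Over the 32851 windows of the table, 21.6% held TGGGAA, 44.8% CAGNTG, 1.60% the octamer, 19.7% GGAAGT and 12.4% TATAAA, so every match found here is to letters that many promoters hold. A match describes these letters only.

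Nearest profiles were sought among the 7586 genes with at least 40 counts over the 4 libraries, by the share of each gene's summed CPM that fell in each library. The distance is 0 for the same shares and 1 for shares that nowhere overlap. The nearest gene to Cr2 was Cd55, at 0.05, followed by Ralgps2 (79.4, 23.0, 29.9 and 488 counts from pro-B to mature B) and Brwd1 (157, 59, 65.5 and 900 counts), at 0.07 and 0.08. For Cd55 the nearest were Ralgps2 at 0.03, Cd86, a co-stimulatory ligand, at 0.04 (15.3, 4, 5 and 94.5 counts), and Marchf1 at 0.04 (30.9, 5, 17.4 and 215 counts). Fcer2a shared its distance of 0 with 10 genes that also had counts in mature B alone. They were Ash1l, Cand2, Ccr6, Cxcr5, Fchsd2, Gm28035, Siglecg, Slamf1, Socs3 and Tomm70a, with 46 to 426 counts in mature B. Cxcr5, Ccr6 and Slamf1 encode surface receptors of lymphocytes.

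Other regulators of complement moved in both directions. Of 6 genes, 3 were tested, with Cd46 2.04-fold higher in mature B than in pro-B (22 and 44 counts), Cr1l 2.16-fold lower (64 and 29) and Serping1 lower at 16 and 3 counts. On FPKM Cr1l, at 7.53 and 5.31, did not pass the fold. Cd59a had at most 4 counts and Cd59b at most 2.44, and Cd55b was at 0 throughout. Their summed level was 120 CPM in pro-B, 160 in pre-B, 179 in immature B and 89.5 in mature B.

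CD23 is cut from the surface by the protease ADAM10, and CD21-high marginal zone cells depend on the receptor Notch2. Of 7 genes of shedding and Notch2 signalling, all were tested from pro-B to mature B, 2 were higher and none lower on CPM, with a median log2 ratio of -0.36. Notch2 had 159, 0, 39.9 and 967 counts from pro-B to mature B, and mature B was 6.22-fold above pro-B. Dtx1, a Notch target, had 9, 69, 56.9 and 101 counts and was 11.4-fold above pro-B in mature B, with its CPM highest in pre-B, at 287. On CPM Adam10 passed the fold in neither direction between the ends (314 and 209 counts), nor did Rbpj (103 and 71) or Hes1 (121 and 72). On FPKM Rbpj was lower, at 6.43 and 2.49.

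Ms4a1, which encodes CD20, rose at the immature stage. Its counts were 90 in pro-B, 10 in pre-B, 227 in immature B and 673 in mature B, or 104 CPM (83.4 to 127), 41.6 (19.96 to 76.6), 1016 (888 to 1157) and 792 (734 to 855). On CPM the last 2 libraries lay far above the first 2, with immature B highest. On FPKM the values were 5.38, 0.57, 14.0 and 41.4, with mature B highest. Immature B was 24.4-fold above pre-B (13.03 to 51.6), and mature B was 7.64-fold above pro-B (6.12 to 9.63). The step from pre-B to immature B ranked above 99.97% of the 5839 genes tested there.

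The nearest profiles to Ms4a1 were those of Fermt3, an activator of integrins in blood cells (14.7, 4.78, 49 and 167 counts), Dnajc14 and Srd5a3, all at a distance of 0.05. Dnajc14 and Srd5a3 had at most 41.4 and 28 counts in any library. The other genes of the MS4A family had fewer counts than Ms4a1 in mature B, at most 102. Of 10, 5 were tested from pro-B to mature B, with 2 higher, none lower on CPM and a median log2 ratio of 0.71. On FPKM 1 was lower, Ms4a4b, at 4.26 and 1.12. Ms4a6c, with the most counts, had 69, 93, 109 and 102 counts and was highest in immature B, at 488 CPM. Ms4a4c was 18.1-fold higher in mature B (53 counts) than in pro-B, whose 2 counts were set to 3, Ms4a3 was the other higher gene (4 and 10 counts), Ms4a4b and Ms4a6b had 36 and 28 and 20 and 32 counts at the ends, and Ms4a4d and Ms4a8a were at 0 in every library.

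Cd37, a tetraspanin of the lymphocyte surface, was high in every library. It had 496, 159, 246 and 715 counts from pro-B to mature B, or 571 CPM (522 to 624), 662 (563 to 773), 1101 (967 to 1247) and 842 (781 to 906). On CPM immature B was highest, and the intervals of pro-B and pre-B overlapped. No comparison passed the fold on CPM, although mature B lay 1.47-fold above pro-B (1.31 to 1.66) and immature B 1.66-fold above pre-B (1.36 to 2.04). On FPKM mature B was highest. The FPKM log2 ratios of -1.62 in pre-B against pro-B and 1.43 in mature B against immature B passed the fold. So did 81.5% and 77.4% of all genes tested, in the same directions. Relative to the FPKM median of genes with at least 10 counts in both libraries, Cd37 was at 0.20 and -0.28. Its nearest profiles were 9130401M01Rik, Atp6v0d1, a subunit of the proton pump of acidic vesicles (74, 22, 35 and 97.5 counts), and Mrtfa (56, 18, 26 and 79 counts), all at 0.01.

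Among 12 other tetraspanins, 10 were tested from pro-B to mature B, with 1 higher, Cd151, 2 lower, Tspan3 and Tspan13, and a median log2 ratio of -0.29. Cd53, with the most counts in mature B, had 217, 154, 246 and 251 CPM. Tspan13 was 5.47-fold lower in mature B than in pro-B, at 83.4 and 466 counts. Cd81 and Tspan14 differed by less than 1.1-fold between these libraries, Cd82 had 73 and 50.9 counts, and Tspan31 was at 0 in all 4.

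Cd40, the receptor for the CD40 ligand of helper T cells, was the gene with the fewest counts. It had 10 counts in pro-B (11.5 CPM, 5.53 to 21.2), 4 in pre-B (16.7 CPM, 4.54 to 42.6), 12 in immature B (53.7 CPM, 27.7 to 93.8) and 41 in mature B (48.3 CPM, 34.6 to 65.5). On CPM the last 2 libraries were higher, and the intervals of all but pro-B overlapped with that of immature B. On FPKM immature B, at 1.43, and pre-B, at 1.04, both lay below pro-B, at 4.94. Mature B was 4.19-fold above pro-B on CPM (2.06 to 9.38). On FPKM the same comparison was 4.94 against 6.95, a log2 ratio of 0.49, which does not pass the fold. One count of Cd40 was worth between 0.119 and 0.494 FPKM depending on the library, a 4.15-fold range, while for Ms4a1, Cd37, Cd38 and Cd93 this range was at most 1.09-fold; the cause was not tested. The nearest profiles were Slc25a25 (11, 4, 14 and 47 counts, at 0.02), Stard10 and Tom1, both at 0.04.

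Genes of a CD40 signalling list, which also holds Cd40lg, Cd80 and Cd86, moved in both directions. Of 12, 10 were tested from pro-B to mature B, 5 were higher, 2 lower, and the median log2 ratio was 0.98. Traf3, which restrains the non-canonical NF-kappaB pathway, was 3.21-fold higher (49 and 154 counts), the kinase gene Map3k14 2.72-fold (42 and 112) and Birc3 2.097-fold (181 and 371). Traf5 was 13.5-fold higher (6 and 79 counts) and Cd86 6.31-fold. Traf6 was 2.35-fold lower, at 276 and 115 counts, and Birc2 26.9-fold, at 82.3 and 3 counts, with FPKM of 7.97 and 1.5. Tnfaip3, with the most counts of the list over the 4 libraries, had 720 and 453 counts and passed the fold in neither direction on CPM, but was lower on FPKM, at 53.3 and 20.8. On FPKM 4 genes of the list were higher and 3 lower, and Birc3, at 24.72 and 46.75, did not pass the fold. Cd40lg, the ligand gene, had 4 counts in mature B and none in the other libraries.

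Cd38 encodes an ectoenzyme that consumes NAD and makes cyclic ADP-ribose. It had 77 counts in pro-B, 89 in pre-B, 51 in immature B and 142 in mature B, or 88.7 CPM (70.0 to 111), 370.5 (298 to 456), 228 (170 to 300.0) and 167 (141 to 197). On CPM pre-B was highest and pro-B lowest, and the intervals of immature B overlapped with those of pre-B and of mature B. On FPKM mature B was highest, at 8.21 against 4.74 in pre-B. The pre-B CPM was 4.18-fold that of pro-B (3.04 to 5.74), a difference not kept on FPKM, where the levels were 4.74 and 4.33, a log2 ratio of 0.13. Mature B was 1.88-fold above pro-B (1.42 to 2.52), just short of the fold, and passed it when the libraries were scaled by TMM or DESeq2 factors, which raise this whole comparison by 0.15 and 0.18 in log2. The nearest profiles were those of Snrnp48, Recql and Man2c1, at 0.02 to 0.03, with 20, 77.7 and 62 counts in mature B.

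Other genes of NAD and nucleotide handling at the cell surface or in NAD supply showed no common course. All 6 were tested from pro-B to mature B, with 2 higher, Nt5e and Enpp1, and 3 lower, Bst1, Nmnat1 and Entpd1, and a median log2 ratio of -0.42. Bst1, the paralog of Cd38, had 99, 10, 4 and 2 counts from pro-B to mature B. It was 32.3-fold lower in mature B than in pro-B with the 2 counts set to 3, with FPKM of 6.38 in pro-B and 0.74 in mature B. Enpp1 had 8 and 34 counts at the ends, Entpd1 47 and 15, and Nmnat1 22 and 10. Nampt, with the most counts, had 137 CPM in pro-B and 165 in mature B.

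Cd93 was the gene that fell most from pro-B to mature B. It encodes a transmembrane glycoprotein with a C-type lectin domain, recognised by the antibody AA4.1, that marks bone marrow B-cell precursors. It had 372 counts in pro-B (429 CPM, 386 to 474), 44 in pre-B (183 CPM, 133 to 246), 21 in immature B (94.0 CPM, 58.2 to 144) and 48 in mature B (56.5 CPM, 41.7 to 74.9). The CPM was lower at each later stage, with the interval of immature B overlapping those of pre-B and of mature B. On FPKM mature B, at 1.36, was above pre-B, at 1.15, and immature B, at 0.60, and pro-B was again highest. Mature B was 7.58-fold below pro-B (5.60 to 10.5), a lower place than all but 3.45% of the genes tested. The nearest profiles were Tbc1d2b (123, 15, 8 and 19 counts), Mki67, a marker of cycling cells (634, 76, 38 and 115 counts), and Selenop (518, 70, 28 and 44 counts), at 0.02 to 0.03.

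Cd24a, which encodes the GPI-anchored heat-stable antigen, ranked highest of the 9 on CPM and on FPKM in every library but mature B. It had 1137, 452, 370 and 375 counts from pro-B to mature B, or 1310.0 CPM (1235 to 1388), 1882 (1712 to 2063), 1656 (1491 to 1833) and 442 (398 to 489). On CPM the first 3 libraries were all high and mature B lay below them. The fall was 2.97-fold against pro-B (2.64 to 3.34) and 3.75-fold against immature B (3.24 to 4.34). The fall against immature B was not kept on FPKM, where the values were 49.6 and 46.3, a log2 ratio of -0.10. Relative to the median, on each scale, of genes with at least 10 counts in both libraries, it was -1.81 on FPKM and -1.83 on CPM. Ubald2 (44, 19, 16 and 16 counts) and Gm11100 (44.1, 19.1, 14.6 and 16.4 counts) had the nearest profiles, both at 0.02.

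Cd93 is also made by endothelial and myeloid cells and Cd24a by erythroid and many other cells, so the markers of such cells are given beside them. The T and NK list summed to 205 CPM in pro-B, 0 in pre-B and in immature B and 5.89 in mature B, with 5 of 6 genes above 0 in pro-B, led by Gzma at 21.5 FPKM, and Cd3e at 0 there. The plasmacytoid dendritic list summed to 315, 58.3, 116 and 47.1 CPM from pro-B to mature B, with all 4 genes above 0 in pro-B, Siglech highest there at 10.5 FPKM, and Siglech, Klk1 and Cox6a2 at 0 in mature B. Stroma and endothelium summed to 144, 107, 210.3 and 99.4 CPM over 5 genes, of which 4 were above 0 in pro-B; Cdh5 had 41 counts in pro-B, 2 in immature B and 0 in the others, Pecam1 was the most abundant gene of the list in pro-B, at 4.18 FPKM, and Lepr was at 0 in all. The pro-B library thus held transcripts of the first 2 lists that mature B nearly lacked, Ccr9 excepted. Of the 3 tested genes of the stroma and endothelium list, Cdh5 alone was lower in mature B than in pro-B. The part of all these cells in the Cd93 and Cd24a results was not tested.

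The 6 genes of the myeloid list summed to 936, 1049, 873 and 790 CPM, with S100a8 the most abundant in pro-B at 89.0 FPKM and Csf1r at 0 in every library, and none passed the fold between pro-B and mature B. Single genes moved at the other steps, with Elane falling 3.60-fold from pro-B to pre-B and rising 5.02-fold to immature B, its 2 counts in pre-B set to 3. At the latter step Mpo was 2.89-fold higher and S100a9 3.26-fold lower, and S100a8 was 2.21-fold lower in mature B than in immature B. Of erythroid transcripts, the globin gene Hbb-bs had 207, 109, 59.1 and 110.0 CPM from pro-B to mature B. Another globin gene, Hba-a1, had 21.9, 17.2, 0 and 0 counts and was lower in mature B than in pro-B. Alas2 had 16, 6, 4 and 8 counts, and Klf1 had 4, 4, 0 and 9. The plasma cell list summed to 316, 375, 282 and 111 CPM, led by Xbp1, with Prdm1 at 0 in pre-B; 2 of its 3 tested genes, Jchain and Xbp1, were lower in mature B than in pro-B. The part of these cells in the results was not tested either.

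Markers of the sorted stages were read against the labels. The pro-B list summed to 2081, 142, 44.7 and 11.8 CPM, and Dntt and Igll1, with 845 and 427 counts in pro-B, were at 0 in the other 3 libraries. The pre-B list summed to 1278, 1066, 576 and 15.2 CPM; all 4 of its genes (Rag1, Rag2, Il2ra and Vpreb3) were lower in mature B than in pro-B, while Rag1 was higher in pro-B, at 918 CPM, than in pre-B, at 372, and Vpreb3 was highest in immature B, at 456 CPM against 295 in pre-B. Rag2 and Il2ra had their highest CPM in pre-B, and on FPKM all 4 were highest in pro-B. The B lineage genes Cd79a, Cd79b, Pax5 and Ebf1 had counts in every library, and of these Cd79a alone was higher in mature B than in pro-B. Of the genes of the gate, Spn, which encodes CD43, had 240 CPM in pro-B, 37.5 in pre-B, 0 in immature B and 44.7 in mature B. Ptprc, the gene of which B220 is an isoform, had 290, 39.1, 69.8 and 676 CPM over the whole gene. Ighm RNA stood at 3775 CPM in pro-B and 7147 in pre-B, libraries sorted as IgM-negative on the surface.

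Relatives of Cd93 and partners of CD24 were read in the same way. Of the group XIV lectins Thbd, Clec14a and Cd248, and Mmrn2, a matrix ligand of CD93, only Thbd was tested, and it was 4.12-fold lower in mature B than in pro-B (80 and 19 counts), while Cd248 had 2 counts in pre-B and Clec14a and Mmrn2 were at 0 in all libraries. CD24 is a ligand of the inhibitory lectin Siglec-G, whose gene Siglecg had 46.8 counts in mature B and 0 elsewhere; Cd22, its relative, had 83, 10, 85 and 903 counts and was 11.1-fold higher in mature B than in pro-B. Both genes of that list were thus higher, and Cd24a lower, in mature B than in pro-B. From pre-B to immature B, Cd22 was 9.14-fold higher while Cd24a passed the fold in neither direction. Of 7 other GPI-anchored surface proteins, 2 were higher from pro-B to mature B, Cd52 and Ly6a, and 2 lower, Bst2 and Thy1, with a median log2 ratio of 0.17. Ly6d, a marker of early B lineage, had 214, 903, 1307 and 260 CPM, Ly6e stood between 482 and 570 CPM in all 4, Bst2 was 6.67-fold lower, at 259 and 38 counts, and Cd52 and Cd48 had 27 and 59 and 40 and 30.3 counts at the ends.

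Further maturation genes outside the 9 were read in the same comparison. Ighd, the heavy chain of IgD, had 59, 13, 24 and 1607 counts and was 27.8-fold higher in mature B than in pro-B. Il4ra was 5.93-fold higher (92 and 534 counts), and Tnfrsf13c, the receptor for the survival factor BAFF, 2.03-fold (108 and 215). Cd1d1 passed the fold in neither direction, at 55 and 30 counts.

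Between pro-B and pre-B, 8 were tested, 2 were higher, Cd38 and Cr2, and 2 lower, Ms4a1 and Cd93. Over all 9148 genes tested, 14.8% were higher and 29.2% lower, so the shares are not far apart. Ms4a1 was 2.49-fold lower in pre-B (1.29 to 5.37) and Cd93 2.34-fold lower (1.71 to 3.28). The Cr2 ratio of 4.52 rests on 15 and 12 counts and has an interval of 1.97 to 10.6. It was not kept on FPKM, where the levels were 0.42 in pre-B and 0.36 in pro-B, a log2 ratio of 0.22. Relative to the median, on each scale, of genes with at least 10 counts in both libraries, Cr2 was at 2.04 on FPKM and 2.16 on CPM. The median log2 ratio of the 8 was 0.41, against -0.37 over all genes tested.

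Between pre-B and immature B, 8 genes were tested, 2 were higher, Ms4a1 and Cd40, and none was lower. Over 5839 genes, 18.9% were higher and 20.2% lower. The Cd40 ratio of 3.22 rests on 12 and 4 counts, and its interval of 0.977 to 13.7 includes no difference. Cd93 and Cd38 stood at ratios of 0.513 (0.290 to 0.881) and 0.616 (0.428 to 0.879), short of the fold. The median was 0.55, against -0.02 over all genes tested.

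From immature B to mature B, all 9 were tested, 3 were higher, Fcer2a, Cr2 and Cd55, and 1 was lower, Cd24a. The background was 24.2% higher and 18.1% lower of 8360 genes. Ms4a1, Cd37, Cd38, Cd40 and Cd93 all had a CPM in mature B somewhat below that in immature B, by 1.11-fold to 1.66-fold. The median log2 ratio was -0.36, against 0.19 over all genes tested. These counts lie near the shares over all genes.

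**Figure D2:**
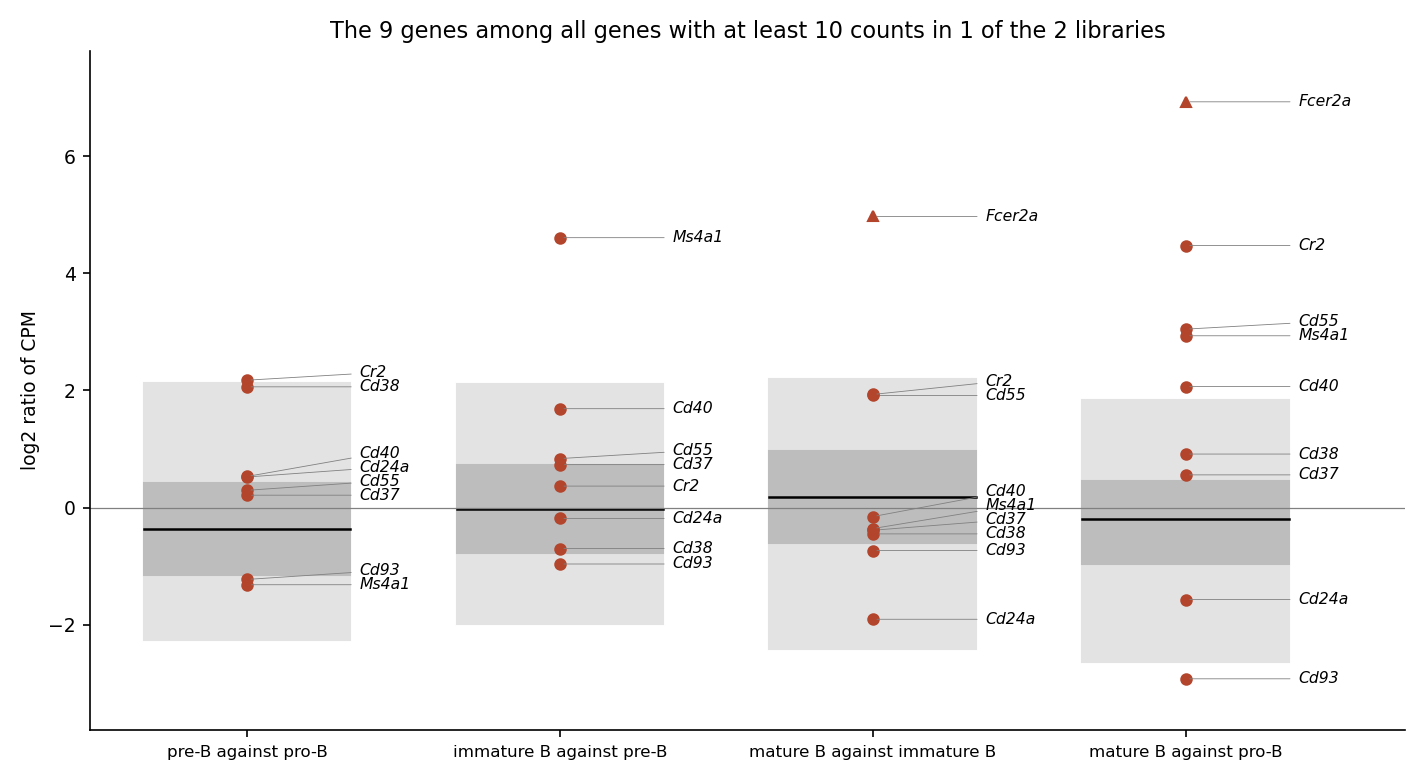
Log2 ratio of CPM in the 4 comparisons: points are the 9 genes where tested, triangles have a 0 set to 3 counts, the black line is the median of all genes tested, the dark box spans the middle 50% and the light box the middle 90%. Fcer2a, Cr2, Cd55, Ms4a1 and Cd40 lie above and Cd93 below the light box in mature B against pro-B, Ms4a1 lies above it in immature B against pre-B, Fcer2a in mature B against immature B and, narrowly, Cr2 in pre-B against pro-B.

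The choice of scale matters most where pre-B or immature B is compared with a deep library. The deposited FPKM divides by transcript length and, in the study's methods, by all fragments mapped to reference genes, not by the mRNA column total. On FPKM the median log2 ratio of genes with at least 10 counts in both libraries was -1.82 in pre-B against pro-B. In mature B against immature B it was 1.71, where the CPM medians of these comparisons were 0.01 and -0.08. The FPKM median was 0.05 and -0.07 in the other comparisons, near the CPM medians of 0.01 and -0.09. In pre-B against pro-B, 2.56% of all genes were higher and 81.5% lower on FPKM, with 0 of the 9 higher and 6 lower. In mature B against immature B, 77.4% were higher and 3.36% lower, with 8 of the 9 higher, counting Fcer2a, and none lower. Relative to the FPKM median, Ms4a1 was at -1.42, Cd93 at -1.34 and Cd38 at 1.95 in pre-B against pro-B, close to their values of -1.33, -1.24 and 2.05 relative to the CPM median. Whether the smaller mRNA share of these libraries reflects the cells or their preparation was not tested.

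In the remaining comparisons the scales differed for single genes. In mature B against pro-B, 15.0% of genes were higher and 25.5% lower on FPKM; 4 of the 9 were higher, counting Fcer2a but not Cd40, and the same 2 as on CPM, Cd93 and Cd24a, were lower. In immature B against pre-B, 22.0% were higher and 22.1% lower, and 3 of the 9 were higher, Ms4a1, Cr2 and Cd55, in place of Ms4a1 and Cd40. Cr2 went from 0.42 to 2.01 FPKM while its counts went from 15 to 18, because one count was worth 0.028 FPKM in pre-B and 0.112 in immature B, a range of 3.99-fold. The Cr2 levels of pre-B and immature B cannot be told apart with these values.

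**Figure D3:**
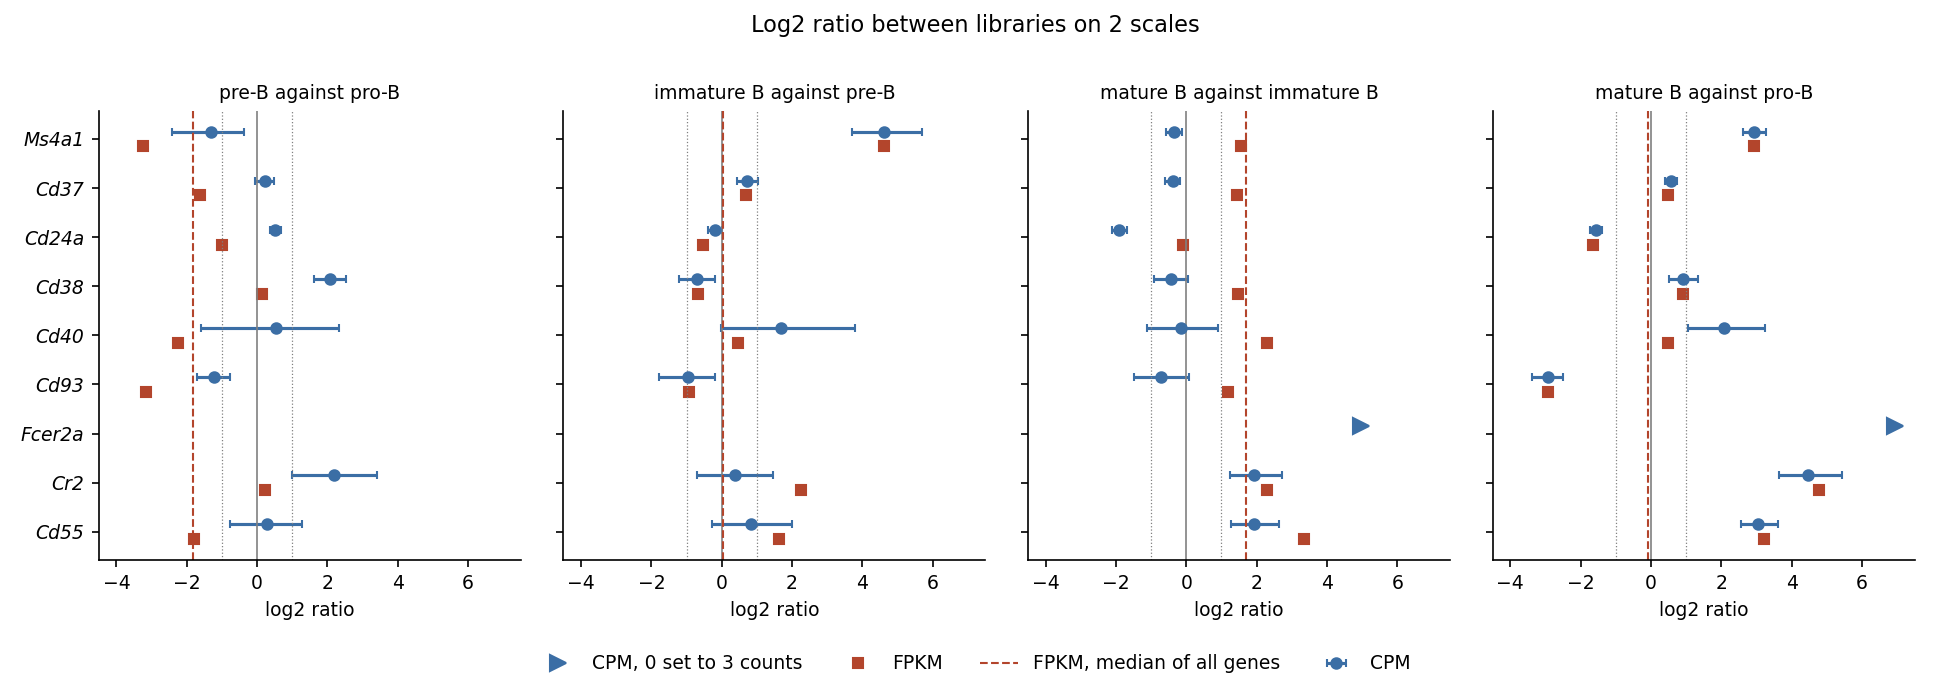
Log2 ratio of each gene in the 4 comparisons on CPM (circles with exact 95% counting intervals; triangles have a 0 set to 3 counts) and on FPKM (squares); the dashed line is the FPKM median of genes with at least 10 counts in both libraries, and dotted lines mark 2-fold. In the comparisons that set pre-B or immature B against a deep library the squares are displaced by about the distance of the dashed line from 0, -1.82 and 1.71. Cd40 departs from that displacement, as does Cr2 in mature B against immature B.

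Shares within the group do not depend on how libraries are scaled. The 9 genes together had 2229 counts in pro-B, 785 in pre-B, 965 in immature B and 2898 in mature B, or 2569, 3268, 4318 and 3412 CPM. Cd24a made up 51.0% of these counts in pro-B (48.9 to 53.1), 57.6% in pre-B (54.0 to 61.1), 38.3% in immature B (35.3 to 41.5) and 12.9% in mature B (11.7 to 14.2). Cd93 went from 16.7% (15.2 to 18.3) to 5.61% (4.10 to 7.45), 2.18% (1.35 to 3.31) and 1.66% (1.22 to 2.19). Ms4a1 held 4.04% in pro-B, 1.27% in pre-B, 23.5% in immature B (20.9 to 26.3) and 23.2% in mature B (21.7 to 24.8). Its share was thus alike in the last libraries, but a share also depends on the other genes of the group. From immature B to mature B its CPM went from 1016 to 792 and its FPKM from 14.0 to 41.4. Fcer2a, Cr2 and Cd55 held 12.3%, 9.01% and 9.86% in mature B, and none of them more than 2.07% in any earlier library. Cd37 stayed between 20.3% and 25.5%, and Cd38 was largest in pre-B at 11.3% (9.20 to 13.8).

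**Figure D4:**
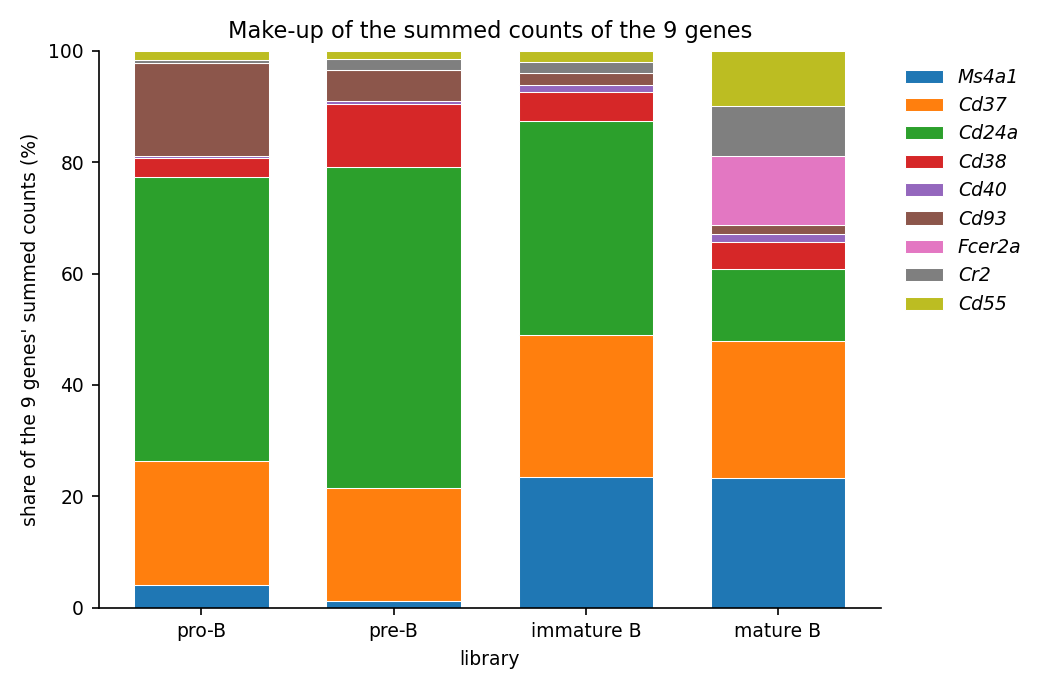
Share of each gene in the summed counts of the 9 genes, 1 bar per library, each bar adding to 100%. Cd24a fills 51.0% and 57.6% of the pro-B and pre-B bars and 12.9% of the mature B bar, where Fcer2a, Cr2 and Cd55 appear with 12.3%, 9.01% and 9.86%; the vertical position follows counts, which also depend on transcript length.

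Levels of different genes can be compared only per length, on FPKM within a library. Cd24a ranked highest of the 9 in each library before mature B, at 145, 72.0 and 49.6 FPKM, and Cd37 next, at 90.5, 29.5 and 47.4. In mature B the order was Cd37 at 128 FPKM, Cd24a at 46.3, Ms4a1 at 41.4, Fcer2a at 37.7, Cd55 at 25.9, Cr2 at 9.84, Cd38 at 8.21, Cd40 at 6.95 and Cd93 at 1.36. No neighbours in that order have a replicate to part them, and Cd24a, Ms4a1 and Fcer2a, and Cr2, Cd38 and Cd40, had the closest values. In pro-B, Cd93 followed at 10.3 FPKM, ahead of Ms4a1 at 5.38, Cd40 at 4.94, Cd38 at 4.33, Cd55 at 2.82 and Cr2 at 0.36. The place of Cd40 there rests on 10 counts at 0.494 FPKM per count, against 0.119 to 0.26 in the other libraries. In pre-B the genes after Cd37 were Cd38 at 4.74, Cd93 at 1.15, Cd40 at 1.04, Cd55 at 0.82, Ms4a1 at 0.57 and Cr2 at 0.42. In immature B they were Ms4a1 at 14.0, Cd38 at 2.97, Cd55 at 2.54, Cr2 at 2.01, Cd40 at 1.43 and Cd93 at 0.60. The place of Cr2 in immature B rests on 18 counts at 0.112 FPKM per count, against 0.028 to 0.038 in the other libraries.

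**Figure D5:**
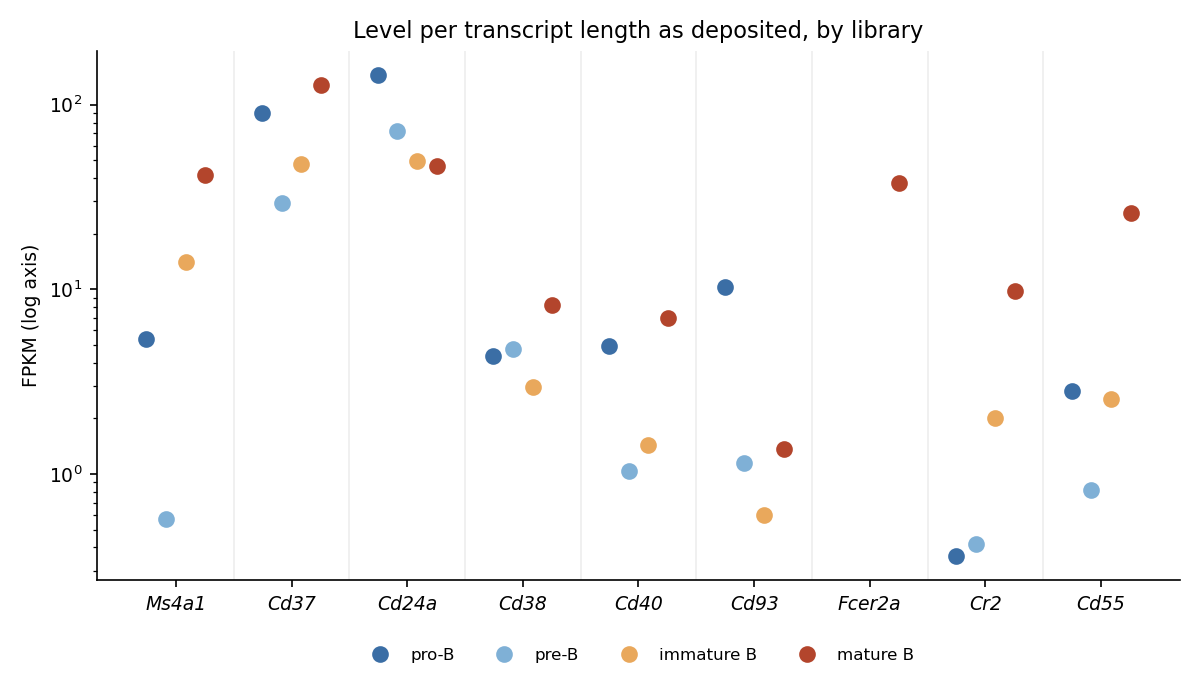
FPKM of the 9 genes in the 4 libraries on a log axis, 1 point per library with no replicate error; Fcer2a, listed at 0 in the first 3 libraries, has a point for mature B only. Cd37 and Cd24a are the highest, with 128 and 46.3 FPKM in mature B, and Cd93 the lowest there, at 1.36.

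What the genes share beyond their choice was read from the table's annotation and the other readouts. All 9 carry the component term membrane, as do 8651 rows of the table, and 7 of the 9 (all but Cd40 and Cd93) are in the hematopoietic cell lineage pathway, which holds 217 rows. The table of long non-coding transcripts lists 7 transcripts under symbols of Cd24a, Cd37, Cd55 and Cr2, of which 4 had counts. The Cd37 transcript ENSMUST00000209677 had 80.2, 23.0, 29.5 and 118 counts from pro-B to mature B, 11.99 to 16.5% of the counts of the mRNA row. The Cd55 transcript ENSMUST00000133057 had 4.59 counts in immature B, 14.8 in mature B and 0 before, and the others had at most 4. Adding them to their genes took the count of genes higher in immature B than in pre-B from 2 to 3, by Cd55. None of the 1005 circRNAs has 1 of the 9 genes as its host.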

How the data were processed

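The authors cleaned paired, stranded reads of rRNA-depleted RNA (fastp 0.18.0), took out what matched rRNA (Bowtie2 2.2.8), and mapped (HISAT2 2.1.0) and quantified (StringTie 1.3.4) the rest. They deposited estimated counts and FPKM for the mRNA and lncRNA tables and whole counts of back-spliced reads for circRNAs; the labels list mm9, but the methods for these tables name no build, so it is not certain. Small RNA values were not used.

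Groups follow the labels, with 1 library per stage. Rows of a symbol were summed. CPM, ratios and exact intervals were computed in Python (3.11.15) with scipy (1.17.1), pandas (2.3.3) and numpy (2.4.6), figures with matplotlib (3.10.9), and scaling factors alone with edgeR (4.0.16) and DESeq2 (1.42.0) in R (4.3.3), on estimated counts rounded to whole numbers. Ratios, intervals and the rule for higher and lower genes were tested on simulated data. Named are all 9 genes, up to 5 genes of each list with the most counts and any at 0 throughout, and up to 3 nearest profiles of each gene, with all ties; some genes the rule picks are left out. Other genes named, such as those past the fold in a list, were chosen after their values were seen. The genes and lists were chosen with earlier results of these data known. Alternatives were FPKM, TMM and DESeq2 factors, the total without immunoglobulin genes, at least 20 counts, no count filter, 0.5 added to every count, and the row with the most counts; added after the data were seen were the total of both tables, lncRNA transcripts added to their gene, and halved counts for intervals.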

Additional observations from a re-analysis of the deposited data

How the results depend on the processing

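No paired analysis was possible because each stage has 1 library and no test was run. Among the counts of higher and lower genes, those for mature B against pro-B stayed within 4 to 6 higher (5 in the main values) and at 2 lower under every alternative. On FPKM, and likewise with the total of both tables, pre-B against pro-B had 0 higher and 6 lower genes in place of 2 and 2. Mature B against immature B then had 8 higher and 0 lower in place of 3 and 1. Both alternatives move the median log2 ratio there of genes with at least 10 counts in both libraries. The shifts were -1.83 and 1.78 on FPKM and -1.87 and 1.86 with both tables, an alternative chosen after seeing the data. Each of these alternatives scales to a total other than the mRNA column total, and why the mRNA share differed between libraries was not tested. At a minimum of 20 counts, 1 gene was higher in pre-B against pro-B (Cd38) and 1 in immature B against pre-B (Ms4a1), each in place of 2, since fewer genes are tested. DESeq2 factors moved the median by 0.18 in pre-B against pro-B and in mature B against pro-B, and TMM factors by 0.15 in the latter. No log2 ratio past the fold in the main values changed sign, but others did and then passed the fold on FPKM and with both tables, as Ms4a1 in mature B against immature B (-0.36 to 1.56 on FPKM); 234 values of single genes stayed within their counting interval and 36 left it, 18 on FPKM, 15 with the total of both tables and 3 with DESeq2 factors. Even counts made up 63.3 to 73.9% of whole counts by library and 50.4 to 52.4% at 50 counts or more; with counts halved, the intervals of Ms4a1 in pre-B against pro-B and of Cd93 and Cd38 in immature B against pre-B come to include no difference, with upper ends of 1.008, 1.075 and 1.055. Depth limits Fcer2a, at 0 counts before the mature stage, and Cd40, Cr2 and Cd55, at 4 to 35.3.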
